A study of Rattus norvegicus with 36 samples.

Results

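The difference between ileum and colon in the response to advanced diabetes was described here for rats of the UCD-T2DM strain, a polygenic model in which diabetes arises spontaneously. For each transcript, the log2 fold change of D3M relative to ND rats in proximal colon was subtracted from the log2 fold change in ileum. A positive difference therefore marks a transcript that rose more, or fell less, in ileum. All rats were untreated males of this strain. ND rats were not diabetic and 70 days old, D3M rats had been diabetic for 88 to 116 days and were 172 to 173 days old, and D1M rats had been diabetic for 22 to 23 days and were 168 to 172 days old. Of the 36 libraries of the study, 22 entered the contrast (5 ND and 6 D3M per segment), and 12 D1M libraries entered the same model, which covered 34 libraries. The ileum library of ND rat K4040 and the colon library of ND rat K4028 were left out because each held RNA of the other segment. Of 24773 transcripts in the count table, 13801 passed the filter on low counts and were tested. Of these, 37 had a response that differed between ileum and colon at a false discovery rate (FDR) under 0.05. Because ND rats were younger than all diabetic rats, age and diabetes cannot be told apart in any comparison with ND.

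The ileum ends nutrient absorption in the small intestine. Its enterocytes carry peptidases, disaccharidases and transporters of sugars, amino acids, nucleosides and lipids on a brush border, and recover bile acids. The proximal colon absorbs water and electrolytes through an epithelium that has few of these enzymes, under the influence of a dense microbiota. In diabetic rodents the small intestine is known to grow and to gain absorptive enzymes.

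Library totals were 12279059 to 19780076 counts in ND ileum, 17918489 to 21510043 in D3M ileum, 11406785 to 17823542 in ND colon and 10638599 to 16196015 in D3M colon. CPM of single transcripts stands for counts brought to a common library size with TMM factors, except that marker levels and marker sums were scaled by the plain library total, without TMM factors. Every fitted colon library held the colonic epithelial marker *Car1* at 19950 CPM or more and *Hoxd10* at 7.859 CPM or more, and every fitted ileum library held the summed ileal epithelial markers (*Fabp6*, *Slc10a2*, *Slc15a1*, *Slc6a19*) at 17340 CPM or more. In ileum, *Car1* ran from 2.606 to 23.22 CPM in ND and from 10.59 to 1151 CPM in D3M rats, with the highest value in rat P762, while *Hoxd10* was at 0 in all fitted ileum libraries. The sum of 12 B cell and follicle markers ran from 38.0 to 1276 CPM in ND ileum (median 593.4) and from 23.9 to 384.7 CPM in D3M ileum (median 29.6). Smooth muscle markers (*Myh11*, *Actg2*, *Des*, *Cnn1*) summed to 1296 to 5991 CPM in ND and 774.1 to 5575 CPM in D3M ileum, and to 6096 to 13850 and 5047 to 14730 CPM in colon. Bulk tissue was sequenced, so fewer cells of a type and less RNA per cell cannot be told apart. Flow cell 3 was the only flow cell with both groups in both segments (1 ND and 2 D3M libraries in each). Flow cell 2 held no D3M ileum library and flow cell 1 no D3M colon library.

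The response of ileum exceeded that of colon in nearly every transcript that differed. Of the 37, the difference was above 0 for 36 (0.261% of the transcripts tested) and below 0 for 1, *Susd4* (0.00725%). This split depended on the D3M ileum libraries of rats P762 and P780. Without them, a setting chosen after seeing the data, 10 differences were above 0 and 6 below 0. All 37 passed FDR < 0.05 in ileum in the same model and none passed in colon. Of all transcripts tested, 8.31% passed as higher and 2.09% as lower in ileum. In colon, 1 of 13801 passed (0.00725%), so the lack of colon calls does not set the 37 apart. A total of 35 were measured in both segments, while *Wnt2* was not measured in colon and RGD1566189 not in ileum, where measured means at least 1 CPM in 5 or more of the segment's ND and D3M libraries. At an unadjusted p under 0.05 in each segment, 24 of the 37 moved in ileum alone, 11 moved in opposite directions and 2, *Car4* and *Dhrs9*, moved in the same direction. The fitted colon response lay within 1 SE of 0 for 17 of the 37. Among the 36, the median log2 fold change was 1.08 in ileum and -0.15 in colon. The selection was made on the difference itself, which favours estimates of opposite sign. Without *Wnt2*, which had almost no reads in D3M colon, the 35 others had differences from 0.52 (*Ppp2r5c*) to 2.78 (*Pde6a*).

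**Figure D1:**
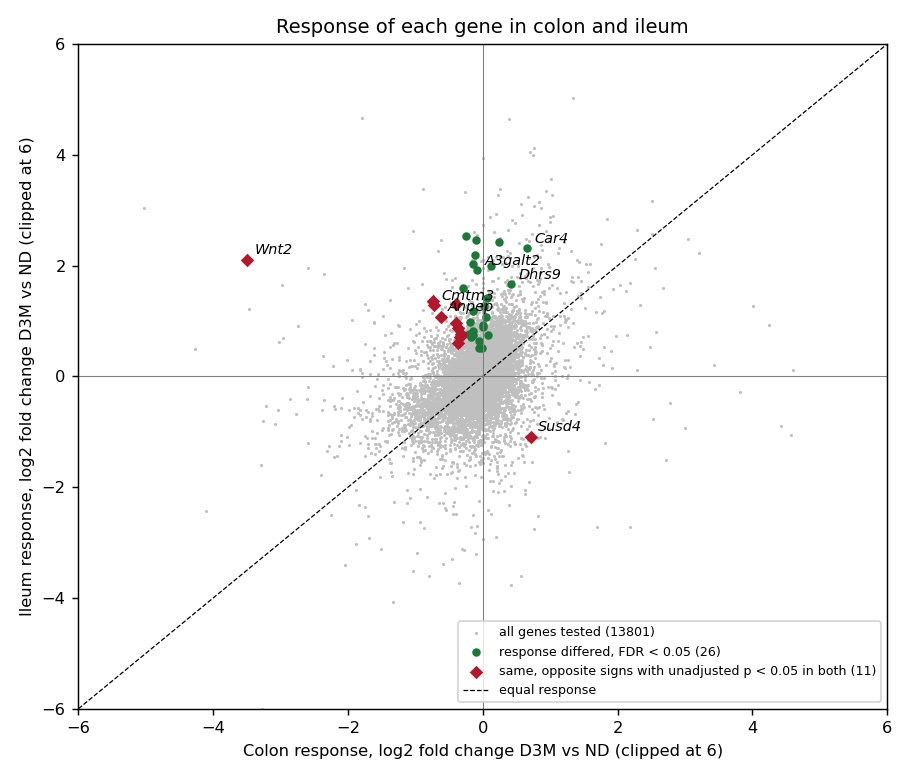
Log2 fold change of D3M relative to ND in colon (horizontal axis) and in ileum (vertical axis), with 1 point for each of 13801 transcripts. Green circles mark 26 of the 37 transcripts whose response differed, red diamonds the other 11, which had opposite signs with an unadjusted p under 0.05 in both segments, and the dashed line marks equal responses. All called transcripts but *Susd4* lie above the dashed line, and *Car4*, at 0.66, is the farthest to the right of 0 among those above it.

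The 37 calls rest on ranges that separate in ileum and mix in colon. In ileum, every D3M library was above every ND library for 28 of the 37 (6.35% of all transcripts tested had that pattern) and the ranges overlapped for 9. In colon, the ranges of 34 overlapped, *Car4* and *Susd4* were higher in every D3M library, and *Cmtm3* was lower in every D3M library (3 without overlap, 1.27% of all transcripts tested). Within rats, the log2 CPM of ileum minus colon was higher in all 6 D3M rats than in the 4 ND rats with both libraries for 25 of the 37 (1.64% of all). These shares come from the libraries that chose the transcripts and are given as a description. In flow cell 3 alone, the difference had the sign of the model for 37 of 37. Its ileum libraries were those of ND rat K4028 and D3M rats P762 and P780. The libraries of flow cell 3 also took part in choosing the transcripts, so the same sign is no separate support. The share over all transcripts was not counted.

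With rat as a fixed block, 0 of 13801 transcripts passed in edgeR (933 at an unadjusted p under 0.05, smallest FDR 0.248), and 36 of the 37 had an unadjusted p under 0.05 in the reported direction. With rat as a random block through duplicateCorrelation, 29 passed, 24 of them among the 37. DESeq2 called 107 transcripts and voom with quality weights 101, with 35 and 34 of the 37 among them. With only the 22 ND and D3M libraries, edgeR called 10 transcripts, 6 of them among the 37.

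Peptidases and a disaccharidase of the brush border were among the clearest differences. *Anpep* (ENSRNOG00000014610, chromosome 1 of rn6, 141561334 to 141604273, minus strand) encodes aminopeptidase N, which removes amino acids from the amino end of dietary peptides. The 5 ND ileum libraries held 3034, 3354, 3935, 5046 and 5110 CPM, and the 6 D3M ileum libraries 6687 to 10234 CPM with a median of 8138. ND colon libraries held 10.4, 13.7, 14.8, 19.6 and 20.2 CPM and D3M colon libraries 8.52 to 14.8 CPM with a median of 9.99. All D3M ileum libraries were thus above all ND ileum libraries, and the colon ranges overlapped. The log2 fold change was 1.08 (SE 0.197) in ileum and -0.63 (SE 0.178, unadjusted p = 0.00148) in colon, and the responses differed by 1.71 (SE 0.265, edgeR FDR 0.00404). The summed ileal epithelial markers, scaled without TMM factors, were 5.78 to 30.4 CPM in ND and 5.00 to 20.9 CPM in D3M colon, and the part of ileal RNA in the colon values of *Anpep* was not tested.

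*Dpp4* (ENSRNOG00000030763, chromosome 3, 48291055 to 48372672, minus strand) encodes dipeptidyl peptidase 4, which cleaves proline-containing peptides and incretin hormones. ND ileum libraries held 576.2, 615.2, 748.1, 922.6 and 971.1 CPM and D3M ileum libraries 1279 to 1812 CPM (median 1538). ND colon libraries held 18.0, 22.1, 22.4, 22.6 and 25.1 CPM and D3M colon libraries 12.6 to 26.1 CPM (median 16.6). Ileum thus separated fully, and in colon 1 D3M library exceeded all ND libraries. The log2 fold change was 0.96 (SE 0.168) in ileum and -0.40 (SE 0.151, unadjusted p = 0.0136) in colon, a difference of 1.35 (SE 0.225, FDR 0.00545).

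The sequences around the start sites of these 2 peptidase genes are shown because both transcripts rose in ileum with colon estimates of opposite sign. Each spans 250 bases before to 50 bases after the start in RefSeq (GRCr8), 5′ to 3′ on the gene's strand, Anpep at chr1:143195052-143195351 and Dpp4 at chr3:67452373-67452672, both on the minus strand. Capitals mark the letters GTTAAT (or ATTAAC on the other strand), the half-site of HNF1, a transcription factor of the enterocyte.
Anpep: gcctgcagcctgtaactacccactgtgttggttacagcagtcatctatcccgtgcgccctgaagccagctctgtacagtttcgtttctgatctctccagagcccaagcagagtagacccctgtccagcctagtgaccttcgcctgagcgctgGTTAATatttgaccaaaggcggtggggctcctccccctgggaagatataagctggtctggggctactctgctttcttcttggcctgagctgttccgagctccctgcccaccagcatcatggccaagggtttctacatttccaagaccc
Dpp4: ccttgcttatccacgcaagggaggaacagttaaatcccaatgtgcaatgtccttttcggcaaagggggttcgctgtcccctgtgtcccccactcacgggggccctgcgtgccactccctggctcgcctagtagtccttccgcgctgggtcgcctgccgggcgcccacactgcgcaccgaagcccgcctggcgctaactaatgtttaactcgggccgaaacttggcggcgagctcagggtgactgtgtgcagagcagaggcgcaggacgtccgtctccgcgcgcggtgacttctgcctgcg

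Of the 37 transcripts, 33 were found by symbol in the RefSeq promoter table, and the 32 of these that rose more in ileum were searched. The HNF1 half-site occurred in 1 of 32 (3.12%), that of *Anpep* 98 bases before the start, against 7.37% of 27457 promoters of the same length. The GATA letters AGATAA occurred in 4 of 32 (12.5%, all promoters 11.3%), the CDX letters TTTATG in 2 of 32 (6.25%, all 12.5%) and the TATA letters TATAAA in 8 of 32 (25%, all 14.3%), on either strand. The CDX letters read CATAAA on the other strand and so share the run ATAAA with the TATA letters. A match describes letters only.

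*Mgam* (ENSRNOG00000026177, chromosome 4, 68849033 to 68996961), maltase-glucoamylase, which releases glucose from starch fragments, was abundant in both segments and passed in ileum and not in colon. ND ileum libraries held 528.0, 574.5, 738.8, 829.3 and 955.9 CPM and D3M ileum libraries 1371 to 2421 CPM (median 1582). Colon held 140.2, 147.8, 186.1, 191.2 and 197.6 CPM in ND and 149.4 to 209.6 CPM (median 162.9) in D3M rats, so that the colon groups overlapped. The log2 fold change was 1.41 (SE 0.202) in ileum and 0.06 (SE 0.173) in colon, a difference of 1.36 (SE 0.262, FDR 0.0163).

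Transporters formed the next group. *Slc28a2* (chromosome 3, 114355798 to 114647382), a sodium-coupled nucleoside transporter, stood at 72.9, 76.6, 112.6, 118.2 and 138.6 CPM in ND ileum and at 210.5 to 272.1 CPM (median 226.4) in D3M ileum. In colon it stood at 18.5, 22.3, 23.0, 23.2 and 24.8 CPM in ND and at 13.6 to 24.6 CPM (median 14.5) in D3M rats. All but 1 of the D3M colon libraries were below all ND colon libraries. Its log2 fold change was 1.31 in ileum and -0.40 in colon (unadjusted p = 0.0435), a difference of 1.71 (SE 0.282, FDR 0.00545).

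*Slc46a3*, a lysosomal transporter, stood at 9.80, 11.5, 11.6, 13.8 and 14.1 CPM in ND ileum and 15.8 to 38.6 CPM (median 29.7) in D3M ileum, against 0.840, 1.18, 1.29, 1.81 and 2.06 CPM in ND colon and 0.644 to 1.48 CPM (median 0.869) in D3M colon. The groups separated in ileum and overlapped in colon at low counts. Its log2 fold change was 1.36 in ileum and -0.73 in colon (unadjusted p = 0.0148), a difference of 2.10 (SE 0.391, FDR 0.0147). *Slc16a14*, of the monocarboxylate transporter family, had 0.87 in ileum and -0.37 in colon (difference 1.25, FDR 0.0302). *Slc43a2*, a transporter of large neutral amino acids, rose by 1.19 in ileum with -0.14 in colon, from 155.3 to 200.7 CPM in ND ileum to 298.8 to 391.9 CPM in D3M ileum (difference 1.33, FDR 0.0302). *Slc2a9*, a urate transporter of the glucose transporter family, rose by 0.71 in ileum with -0.18 in colon (difference 0.89, FDR 0.0302).

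Lipid and retinoid enzymes were also among the 37. *Acsl5*, which activates long-chain fatty acids, stood at 705.0 to 1079 CPM in ND and 1407 to 2197 CPM in D3M ileum, and at 126.9 to 145.3 CPM in ND and 122.7 to 145.5 CPM in D3M colon. The colon groups covered the same span, and the log2 fold changes were 0.93 (SE 0.135) and 0.01 (SE 0.118), a difference of 0.93 (FDR 0.0163). *Acot5*, an acyl-CoA thioesterase, rose by 2.45 in ileum at low levels (ND mean 1.07, D3M mean 4.57 CPM) with -0.10 in colon, where it stood at 4.54 to 9.11 CPM in ND and 4.25 to 8.22 CPM in D3M rats (difference 2.55, FDR 0.0163). *Dhrs9*, a retinol dehydrogenase, rose by 1.66 in ileum with 0.42 in colon (unadjusted p = 0.0301), a difference of 1.24 (FDR 0.0355).

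*Car4* (chromosome 10, 72272248 to 72281067), a membrane-anchored carbonic anhydrase typical of colonic epithelium, was higher in D3M rats in both segments but more so in ileum. ND ileum libraries held 52.1, 62.1, 62.1, 67.6 and 70.9 CPM and D3M ileum libraries 184.6 to 431.3 CPM (median 324.2). ND colon libraries held 697.6, 956.5, 1177, 1290 and 1345 CPM and D3M colon libraries 1500 to 1900 CPM (median 1664). The groups separated in both segments, with log2 fold changes of 2.31 (SE 0.282) in ileum and 0.66 (SE 0.245, unadjusted p = 0.012, FDR 0.522) in colon and a difference of 1.65 (SE 0.361, FDR 0.0393). The colonic marker *Car1* was also higher in some D3M ileum libraries (10.59 to 1151 CPM, ND 2.606 to 23.22 CPM), while *Hoxd10* was at 0 in all of them. The lowest D3M value of *Car4*, 184.6 CPM, was above all ND values, and the part of colonic RNA in the rise was not tested.

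**Figure D2:**
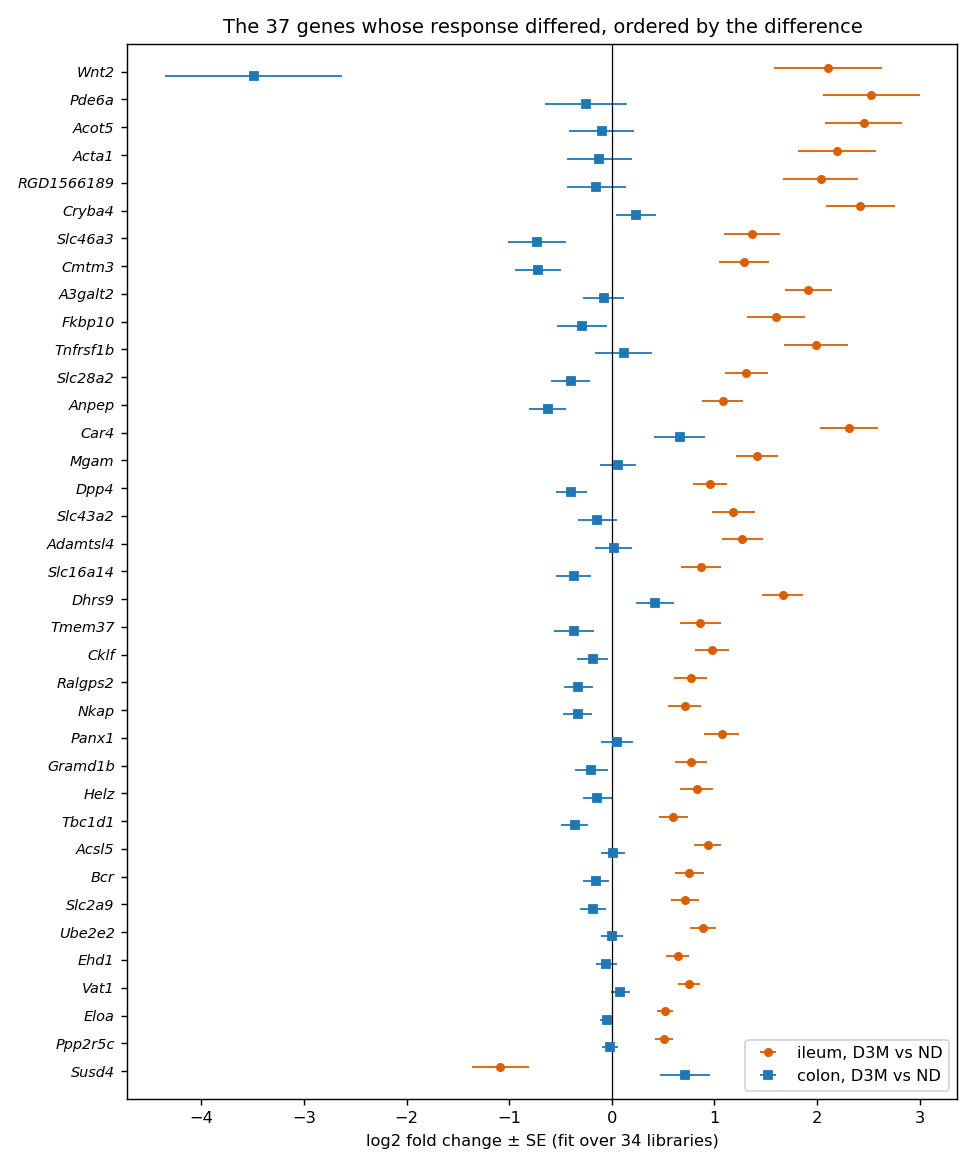
Log2 fold change of D3M relative to ND, with SE, in ileum (orange circles) and colon (blue squares) for the 37 transcripts, ordered by the difference. *Wnt2* is at the top, with a fitted colon value that rests on 0 or 1 count per D3M library, and *Susd4*, at the bottom, is the only one with ileum below colon.

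Opposite directions were sought across all transcripts. In edgeR, 1 of 13801 passed FDR < 0.05 in colon, so at most 1 could pass in both segments. With opposite signs, 0 passed in both. At an unadjusted p under 0.05 in both, 33 had opposite signs (0.239%), and 11 of these were among the 37. Besides *Anpep*, *Dpp4*, *Slc28a2*, *Slc46a3* and *Slc16a14*, they were *Cmtm3*, *Wnt2*, *Ralgps2*, *Tbc1d1*, *Nkap* and *Susd4*. The colon change taken alone did not pass for any of them (colon FDR 0.233 to 0.593). With only the 22 ND and D3M libraries in the model, *Cmtm3*, *Wnt2* and *Asz1* passed in both segments with opposite signs. In D3M colon, *Wnt2* held 1 count in total and *Asz1* 0, against 20 counts each in ND colon. *Ccl25*, *Ggt1* and RT1-Ba passed in colon and in the difference in that model, without passing in ileum.

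*Cmtm3* (chromosome 19, 830877 to 838099, minus strand), of the chemokine-like factor family, was the transcript whose ranges separated both ways. ND ileum libraries held 33.6, 45.8, 46.3, 49.3 and 55.2 CPM and D3M ileum libraries 81.6 to 129.6 CPM (median 89.9). ND colon libraries held 9.54, 9.99, 12.0, 15.5 and 15.7 CPM and D3M colon libraries 4.75 to 8.90 CPM (median 8.48). Every D3M library was above ND in ileum and below ND in colon. The log2 fold changes were 1.29 (SE 0.247) and -0.72 (SE 0.226, unadjusted p = 0.00368, FDR 0.438), a difference of 2.01 (SE 0.334, FDR 0.00545). *Cklf*, its neighbour on the same strand (chromosome 19, 906411 to 914880) and founding member of the family, had 0.97 in ileum and -0.19 in colon (difference 1.16, FDR 0.0163).

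*Wnt2* (chromosome 4, 45292437 to 45332420, minus strand), which encodes a secreted Wnt ligand, was rare throughout. Its counts were 5 to 14 in ND ileum and 22 to 61 in D3M ileum, and 1 to 7 in ND colon, while D3M colon held 0 counts in 5 libraries and 1 count in the sixth. The ileum response was 2.11 (SE 0.529, FDR 0.0111). The fitted colon value and the fitted difference depend on the prior count of the model, and neither is read here as a fold. The neighbouring *Asz1* (chromosome 4, 45358574 to 45414177, minus strand), a germ cell protein, stood in ileum at 14 to 61 counts in ND and 182 to 365 counts in D3M rats, and had 0 counts in all 6 D3M colon libraries and in 3 of 5 ND colon libraries. Its 20 ND colon counts came from rats K4047 and K4048. Their colon libraries had B cell marker sums of 951.1 and 977.8 CPM, against 14.4 to 15.3 CPM in the other ND colon libraries kept. The difference of *Asz1* did not pass (FDR 0.063).

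*Susd4* (chromosome 13, 101181994 to 101307908), a membrane protein that restrains complement, was the only transcript with a lower response in ileum. ND ileum libraries held 2.19, 3.28, 3.74, 3.82 and 5.66 CPM and D3M ileum libraries 1.34 to 2.93 CPM (median 1.94). ND colon libraries held 2.20, 3.31, 3.39, 3.42 and 3.87 CPM and D3M colon libraries 4.52 to 7.05 CPM (median 5.38). The ileum ranges overlapped and the colon ranges did not. The log2 fold changes were -1.09 (SE 0.277) and 0.71 (SE 0.242, unadjusted p = 0.00651), a difference of -1.80 (SE 0.368, FDR 0.0277). Within flow cell 3 the ileum difference of means was 0.26 and within flow cell 1 -1.72. Of these flow cells, the fall in ileum was seen in flow cell 1 alone.

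Of the other opposite pairs, *Tbc1d1*, a Rab GTPase-activating protein of glucose transporter traffic, stood at 71.1 to 94.8 CPM in ND and 111.1 to 152.9 CPM in D3M ileum, and at 38.5 to 46.4 CPM in ND and 24.4 to 40.4 CPM in D3M colon (difference 0.96, FDR 0.0258). *Ralgps2*, an exchange factor for Ral GTPases, had 0.77 in ileum and -0.33 in colon (difference 1.10, FDR 0.0163). It overlaps *Angptl1* on the opposite strand, so reads of the pair may be mixed if strand was not used in counting. *Nkap*, a regulator of transcription in the NF-kB pathway, had 0.71 and -0.33 (difference 1.04, FDR 0.0258). Their separate colon values did not pass.

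**Figure D3:**
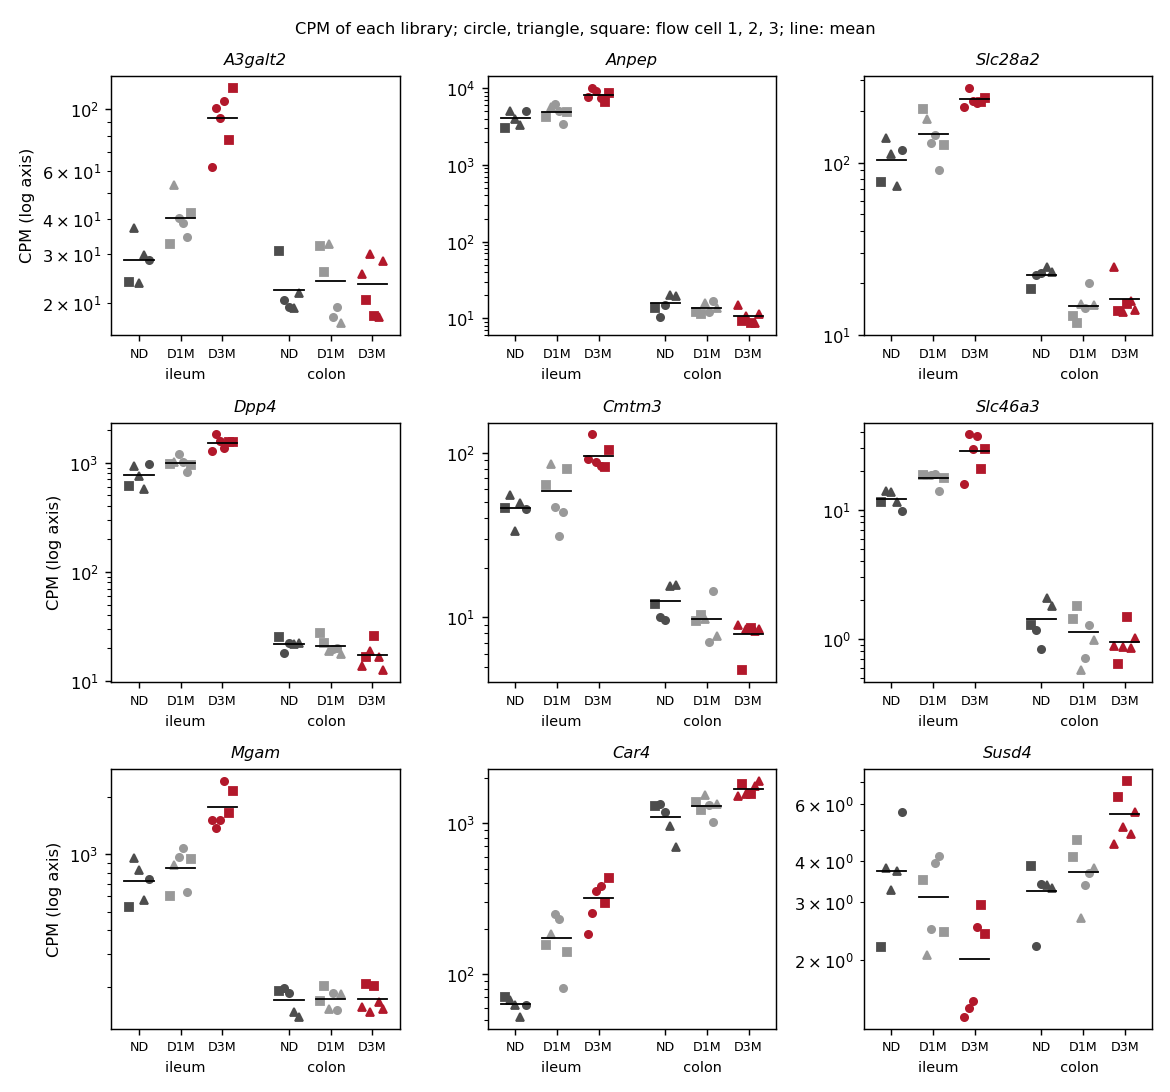
CPM of each library on a log axis for 9 transcripts, by segment and group, with circles, triangles and squares for flow cells 1, 2 and 3 and a line at the group mean. In D3M ileum all libraries of *A3galt2*, *Anpep*, *Slc28a2*, *Dpp4*, *Cmtm3*, *Slc46a3*, *Mgam* and *Car4* lie above the ND libraries, whereas D3M colon overlaps ND colon in all but *Cmtm3*, *Car4* and *Susd4*.

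The smallest p-value of all transcripts was that of *A3galt2* (chromosome 5, 146933592 to 146945880), a galactosyltransferase that makes the glycolipid isoglobotriaosylceramide. ND ileum libraries held 23.5, 23.7, 28.4, 29.7 and 37.2 CPM and D3M ileum libraries 61.8 to 119.7 CPM (median 96.9), against 19.1, 19.3, 20.5, 21.7 and 30.8 CPM in ND colon and 17.7 to 30.0 CPM (median 22.9) in D3M colon. ND rats had nearly the same level in both segments, and D3M ileum alone stood apart. The log2 fold changes were 1.91 (SE 0.228) and -0.08 (SE 0.202), a difference of 1.99 (SE 0.300, FDR 0.00404).

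Transcripts usually known from other tissues (*Cryba4*, *Acta1* and *Pde6a*) were also among the 37, as were *Fkbp10* and *Tnfrsf1b*. *Cryba4*, a crystallin of the lens, stood at 31.5 to 47.3 CPM in ND colon and 0.202 to 1.01 CPM in ND ileum, and rose to 0.871 to 3.14 CPM in D3M ileum (difference 2.19, SE 0.393, FDR 0.0105). The ileum ranges overlapped. *Acta1*, skeletal muscle actin, ran from 25.5 to 121.1 CPM in D3M ileum and from 13.0 to 36.7 CPM in ND ileum (difference 2.32, FDR 0.0302). The ranges of *Acta1* overlapped in both segments. *Pde6a*, a phosphodiesterase subunit of rod cells, stood at 0.432 to 1.01 CPM in ND and 1.57 to 4.21 CPM in D3M ileum (difference 2.78, FDR 0.0393). *Fkbp10*, a chaperone of collagen in the endoplasmic reticulum, ran from 16.8 to 26.3 CPM in ND and 21.5 to 94.8 CPM in D3M ileum (difference 1.89, FDR 0.0168). *Tnfrsf1b*, a receptor of tumour necrosis factor, ran from 10.9 to 13.8 CPM in ND and 24.3 to 52.7 CPM in D3M ileum, and from 3.00 to 10.0 CPM in ND and 4.83 to 8.52 CPM in D3M colon (difference 1.87, FDR 0.0393).

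Colon estimates of the remaining transcripts lay between -0.37 (*Tmem37*) and 0.08 (*Vat1*). They were *Panx1*, a membrane channel, *Adamtsl4*, a matrix protein, *Tmem37*, *Gramd1b*, which moves sterols between membranes, *Bcr*, *Helz*, *Ube2e2*, *Ehd1*, which recycles endocytosed proteins, *Vat1*, *Eloa*, a transcription elongation factor, *Ppp2r5c*, a subunit of a protein phosphatase, and RGD1566189. The naming rule covered 18 of the 37, and the 19 others were named after their values were seen. *Panx1* rose from 215.9 to 306.0 CPM in ND ileum to 426.6 to 604.0 CPM in D3M ileum, with 36.7 to 48.9 CPM in ND colon and 32.9 to 46.9 CPM in D3M colon. *Eloa* had the smallest SE of the 37, with 0.52 (SE 0.075) in ileum and -0.05 (SE 0.067) in colon. ND ileum and ND colon held *Eloa* at 48.2 to 55.3 and 39.0 to 45.8 CPM. RGD1566189 was read at 5 to 14 counts in ND and 14 to 28 counts in D3M ileum. In ND rats, 28 of the 36 transcripts that rose more in ileum were already higher in ileum than in colon, and 8 were lower.

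The mean CPM in D1M ileum was between ND and D3M for 36 of the 37. *A3galt2* had a mean of 28.5 CPM in ND, 40.4 CPM in D1M and 93.4 CPM in D3M ileum, *Anpep* 4096, 4952 and 8315 CPM, and *Car4* 63.0, 173.4 and 316.6 CPM. The means of *Car4* thus rose in both steps, while those of *Anpep* and *A3galt2* rose more from D1M to D3M than from ND to D1M. The D3M vs D1M difference between segments, over rats of similar age, had a median of 0.72 among the 36, and that of D1M vs ND a median of 0.48. Each shares its D3M or its ND libraries with the comparison that chose the transcripts. Over all transcripts, edgeR called 0 differences for D3M vs D1M (1253 at an unadjusted p under 0.05, smallest FDR 0.0624), where DESeq2 called 33 and voom 29. For D1M vs ND it called 1, *Cryba4* (0.00725%), with a difference of 2.20 (FDR 0.0205), and DESeq2 called 2 and voom 0.

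Across all transcripts, more passed in ileum than in colon. In ileum 1147 transcripts were higher (8.31%) and 288 lower (2.09%) in D3M relative to ND rats, and in colon 1 was higher (0.00725%), *Pde9a*, and 0 were lower, with 1131 at an unadjusted p under 0.05. DESeq2 called 23 in colon, voom 25, and edgeR on the 22 libraries alone 53. With TMM within each segment, ileum gave 874 higher and 473 lower, so that higher calls were 64.9% in place of 79.9%. Without the D3M ileum libraries of rats P762 and P780, ileum gave 207 higher and 219 lower (48.6% higher). The excess of higher calls in ileum was thus not seen without these 2 libraries. *Pde9a*, a phosphodiesterase of cyclic GMP, had 0.95 (SE 0.144) in colon and 0.85 in ileum, and the difference between segments did not pass (-0.10, FDR 0.928).

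For most ileal changes no difference between segments was detected. Of the 1147 transcripts higher in D3M ileum, 36 had a different response in colon. Their median log2 fold change was 0.60 in ileum and 0.13 in colon, and the colon value was above 0 for 81.9% of them, against 48.9% of all transcripts. Of the 288 lower in D3M ileum, 20.8% were above 0 in colon, with medians of -0.60 and -0.12. At an unadjusted p under 0.05, the difference was reached by 60.1% of the higher and 52.8% of the lower group, against 10.5% of all transcripts. Both groups were chosen on the ileum response, which is itself a part of the difference. Higher shares than over all transcripts follow from that choice and are given as a description. The 2 segments do not share libraries but share rats. Over the 13801 transcripts the 2 responses had a Pearson r of 0.373 and a Spearman rho of 0.432, as a description across transcripts, which are not independent replicates. The median SE of a difference was 0.276, against 0.207 for a response in ileum and 0.183 in colon.

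*Gramd1b* was the last to pass (difference 0.97, FDR 0.0491), and *Mical1* (0.71), *Capn15* (0.60), *Fhl2* (0.72) and *Lpar1* (0.72) were the first not to (FDR 0.0541 each). *Khk*, the first enzyme of fructose breakdown, had a difference of 0.71 (FDR 0.0589), and *Slc3a2*, a shared subunit of amino acid transporters, 0.69 (FDR 0.063). On the lower side, *Slc2a1*, a glucose transporter of most cells, had -0.54 in ileum and 0.44 in colon (difference -0.98, FDR 0.0649), and *Slc9a3*, the sodium-proton exchanger of the apical membrane, -1.15 and 0.67 (difference -1.81, FDR 0.0756). *Reg3a*, an antibacterial lectin, was at 0 in all ND colon libraries and at 0 to 0.529 CPM in D3M colon, so that no fold is given (FDR 0.141).

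Gene lists were described by their counts and by their median log2 difference, which was 0.02 over all transcripts tested, of which 53.1% had a difference above 0, 8.31% rose in ileum and 0.261% rose more in ileum. Some members passed the filter through 1 segment alone, so values over the members measured in both segments are given as well (all transcripts measured in both: median 0.03, 53.9% above 0). Of 24 transcripts of ileal identity, 3 rose more in ileum (*Anpep*, *Dpp4*, *Mgam*), none less, and 21 did not pass, with a median difference of 0.795 and 21 above 0. Over the 16 measured in both segments, the median was 0.685 and 15 were above 0. In ileum itself 11 of the 24 rose and in colon 0. *Mttp*, which loads lipid onto apolipoprotein B, had the fourth smallest p of this list, with 0.21 in ileum and -1.43 in colon (FDR 0.21).

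Of 15 brush border peptidases, 2 rose more in ileum (*Anpep*, *Dpp4*), 13 did not pass and 15 of 15 had a difference above 0 (median 0.60), with a median of 0.575 over the 14 measured in both segments. *Ggt1*, gamma-glutamyltransferase, had 0.83 in ileum and -0.85 in colon (FDR 0.103), and *Mme*, neprilysin, 1.0 and -0.95 (FDR 0.25). Of 17 transcripts of carbohydrate digestion and absorption, 11 rose in ileum, 0 in colon and 1 (*Mgam*) differed (median difference 0.565). Over the 13 measured in both segments, 10 were above 0 with a median of 0.453. *Slc5a1*, the sodium-glucose cotransporter, had 1.5 in ileum and 0.17 in colon (FDR 0.12), and *Slc2a5*, the fructose transporter, 0.83 and -0.08 (FDR 0.36). *Hk2*, a hexokinase, had -0.19 in ileum and 0.60 in colon (FDR 0.36).

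Of 18 amino acid and peptide transporters, 1 (*Slc43a2*) rose more in ileum and 17 did not pass (median 0.63). Over the 14 measured in both segments the median was 0.468, with 9 above 0. *Slc6a19*, the main transporter of neutral amino acids, had 1.11 in ileum and 0.08 in colon (FDR 0.26), and *Slc1a1*, a glutamate transporter, -0.74 and -0.18 (FDR 0.30). Of 26 transcripts of lipid absorption and chylomicron assembly, 13 rose in ileum and 1 (*Acsl5*) differed (median 0.51, the same over the 22 measured in both segments), and *Fabp1*, the liver fatty acid binding protein, had 1.16 and -0.06 (FDR 0.28). Of 23 transcripts of brush border structure, 8 rose and 1 fell in ileum and 0 differed (median 0.41, all 23 measured in both segments). *Ezr*, which links microvilli to actin, had 0.86 in ileum and 0.14 in colon (FDR 0.16).

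Ileal epithelial markers moved with these lists. Their sum was 17340 to 24550 CPM in ND ileum (median 18660) and 19520 to 32710 CPM in D3M ileum (median 29940), while smooth muscle and neuronal markers had lower medians there (neuronal 42.7 and 13.8 CPM). The colonic marker *Car1* was called higher in ileum as well, at 3.27 (SE 1.04, FDR 0.0446), with 0.23 in colon, and its difference did not pass (FDR 0.372). The median difference was 0.834 over the 4 colonic and 0.807 over the 4 ileal epithelial markers, with 0 called in either set. Of 15 colonic identity transcripts, 4 rose and 1 fell in ileum and 1 rose more in ileum. Their median difference was 0.209, and 0.182 over the 10 measured in both segments. Both *Slc15a1* and *Slc6a19* are markers as well as list members, and the part of cell composition in the lists was not tested. With a smooth muscle score as a covariate, an alternative chosen after seeing the data, 69 transcripts were called and all 37 were among them. With a B cell score as a covariate, 30 were called and 28 of the 37 were among them.

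Of 40 transcripts of electrolyte and water transport, 1 (*Car4*) differed, with a median of 0.18. *Scnn1b*, a subunit of the epithelial sodium channel, had 3.15 in ileum and 0.83 in colon (FDR 0.28). Cell cycle (45 transcripts) and fibroblast and matrix lists (51 transcripts) had no call for the difference, with 5 and 3 members lower in ileum and 0 called in colon. Their medians were -0.43 in ileum and -0.36 in colon for the first and -0.36 and -0.35 for the second. *Col1a1*, a fibrillar collagen chain, had -0.84 in ileum and -1.0 in colon (difference 0.16, FDR 0.925). Of 46 transcripts of oxidative phosphorylation 0 differed (median -0.105).

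The lists of enteric neurons (median -0.705, 24 transcripts), smooth muscle (-0.41, 23) and adipocytes (-0.97, 20) had medians below 0 and no call for the difference (-0.705 over 20, -0.41 over 21 and -0.859 over 16 measured in both segments). B cells (1.24, 23), MHC class II (0.97, 11) and the interferon response (0.93, 36) had medians above 0 and no call for the difference. The B cell list had fitted medians of 0.04 in ileum and -1.26 in colon. By contrast, the sum of 12 B cell markers had medians of 593.4 CPM in ND and 29.6 CPM in D3M ileum. In colon these medians were 15.3 and 17.1 CPM, so the median sum fell in ileum alone. A high B cell score was held by 3 ND and 1 D3M ileum libraries and by 2 ND and 2 D3M colon libraries. Only 11 of the 23 B cell transcripts were measured in both segments, with a median of 0.771, against 11 of 11 for MHC class II and 35 of 36 for the interferon response (median 0.918). For MHC class II, *Cd74* had 0.59 in ileum and -0.75 in colon (FDR 0.39). For D3M vs D1M, over rats of similar age, the median difference was -0.756 for the interferon response and 0.274 for adipocytes, of the other sign. It kept its sign for B cells (1.48), MHC class II (0.3), enteric neurons (-0.474) and smooth muscle (-0.415).

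**Figure D4:**
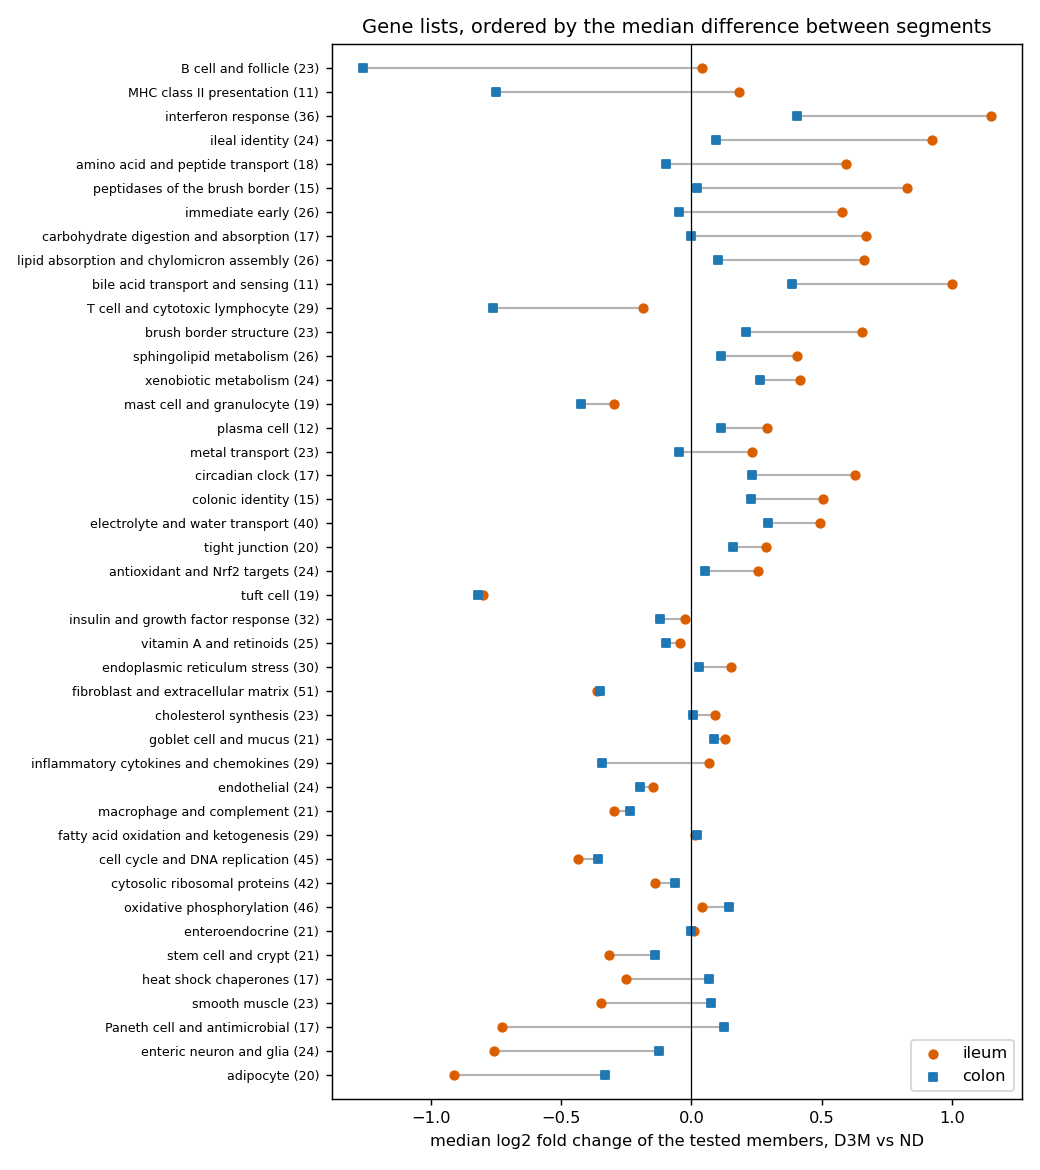
Median log2 fold change of D3M relative to ND over the tested members of each gene list with at least 10 tested members, in ileum (orange circles) and colon (blue squares), ordered by the median difference, with the number tested in parentheses. Absorptive lists (ileal identity, peptidases, carbohydrate, amino acid, lipid) have ileum medians of 0.594 to 0.925 and colon medians of -0.0975 to 0.103, while the cell cycle and fibroblast lists have nearly equal medians in both segments.

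Several transcripts were followed because the study had singled them out. It named *Enpp7*, *Sptlc3*, *Slc7a15* and *Kctd14* for D1M against D3M rats within ileum, which is not the difference between segments given here. *Enpp7*, alkaline sphingomyelinase, had 7 to 16 counts in ND ileum and 7 to 75 counts in D3M ileum and 0 counts in all colon libraries, and *Sptlc3*, of ceramide synthesis, had 2 to 13 and 4 to 11 counts in ileum and likewise 0 in colon. D1M ileum held 2 to 16 counts of *Enpp7* and 8 to 53 counts of *Sptlc3*. The colon response of both could not be measured. *Slc7a15* had a difference of 1.65 (SE 1.2, FDR 0.705), *Kctd14* 0.85 (FDR 0.43), *Slc30a10* 1.53 (FDR 0.371), *Col3a1* 0.46 (FDR 0.714), *Igfbp3* 0.08 (FDR 0.978) and *Gcg*, which encodes proglucagon, -0.34 (FDR 0.736). None of these passed. For D3M vs D1M, the difference between segments was 2.19 (SE 1.05, FDR 0.544) for *Slc7a15* and 1.30 (SE 0.342, FDR 0.228) for *Kctd14*.

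**Figure D5:**
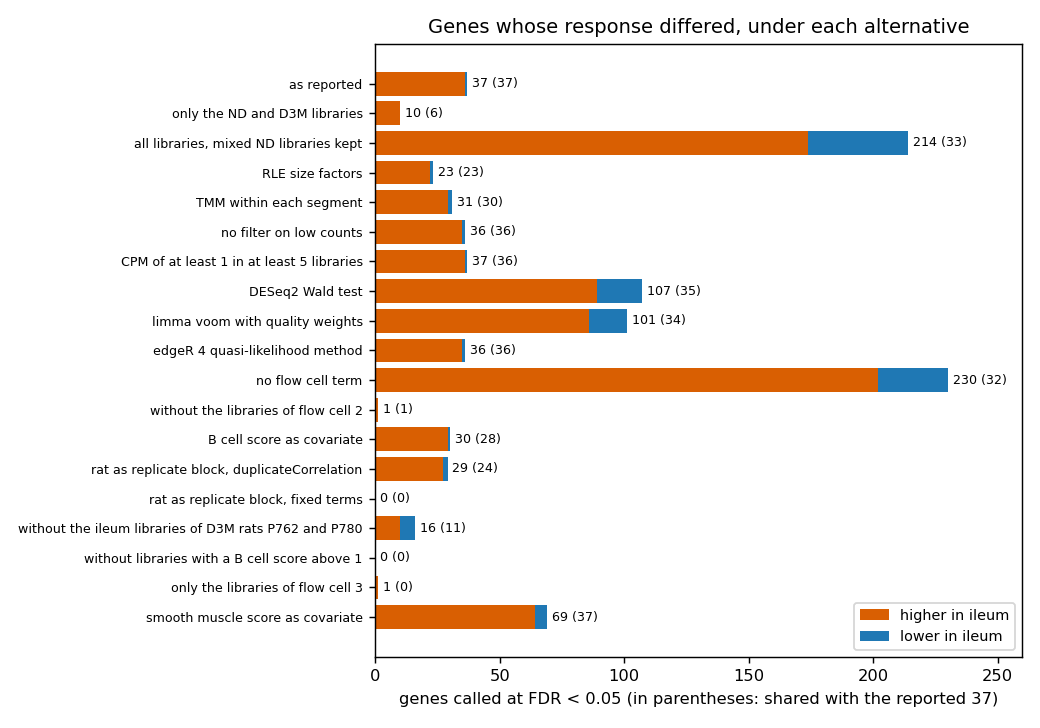
Number of transcripts whose response differed at FDR < 0.05 under each alternative, split into higher (orange) and lower (blue) in ileum, with the number shared with the reported 37 in parentheses. The count runs from 0 with rat as a fixed block, or without libraries with a high B cell score, to 230 without a flow cell term.

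The count depended on a few libraries. It was 1 without the libraries of flow cell 2, and 16 without the D3M ileum libraries of rats P762 and P780, the latter chosen after seeing the data. It was 9 without the ileum library of ND rat K4028 and 9 without that of D1M rat K3986, 16, 21 and 19 without the colon libraries of ND rats K4037 and K4047 and D3M rat K3961, and 23 without the ileum library of D3M rat P780. It was 89 without the ileum library of ND rat K4048 and 116 without that of D3M rat K3959. Of the 37, 5 passed in all 34 of these fits, and 0 of the 37 changed direction in any of them. *A3galt2*, *Anpep*, *Slc28a2*, *Dpp4* and *Cmtm3* were those 5. Without 11 libraries with a high B cell score, chosen after seeing the data, 2 ND and 5 D3M ileum libraries were left, edgeR called 0 (554 at an unadjusted p under 0.05), and 35 of the 37 had an unadjusted p under 0.05 in the same direction.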

How the data were processed

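RNA of flash-frozen ileum and proximal colon of male UCD-T2DM rats was sequenced by the authors (polyA-selected stranded libraries). The deposited counts per gene were made by the authors with STAR on rn6 and SeqMonk. The STAR version and the strand setting of the counting are not given in the sources used here. A further 72 columns of per-sample values were not used, and neither was the table of log-transformed normalized values. Members of the comparison, gene lists and tests were chosen with earlier results of these data known.

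Counts of 34 libraries were fitted with edgeR 4.0.16 (R 4.3.3; TMM, robust quasi-likelihood test, Benjamini-Hochberg FDR over 13801 genes kept by the filter on low counts), with a mean per segment and group and flow cell (3) within segment. The response difference was (ileum D3M - ileum ND) - (colon D3M - colon ND). Depth was 10024041 to 21510043 counts per library, and total counts set the precision of low transcripts. limma 3.58.1, DESeq2 1.42.0 and other scalings, filters, covariates and left-out libraries were alternatives. Named genes were up to 12 called per direction, up to 10 with opposite signs, up to 4 per list with at least 3 called members, and 10 genes the study named, above a minimum level. Gene lists (46) had 1238 entries, of which 1065 matched a tested gene.

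The same rat gave ileum and colon for 16 rats, which pairs the segments by animal. Deviations of both segments from their group means correlated at -0.709 to 0.762 (median -0.0559, 6 of 16 over 0.1, 11301 genes). Tested on simulated data, the model recovered 18% of genes with a difference of 1.5-fold and 60% of 2-fold. It recovered 84% of genes with 3-fold and 92% with 4-fold differences (50 genes each, 13604 genes). Of 136 genes called there, 9 were unchanged. The changed genes were above 1 CPM in both segments, so rarer transcripts were not covered. Libraries were drawn without rat or flow cell effects. Figures were drawn with Python 3.11 and matplotlib 3.10.9. P-values of the reported model measure the spread between libraries within segment and group after the flow cell terms. That model has no term for rat, so the 2 libraries of a rat enter as independent. A result that needs an item withheld for evaluation is not reported here.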

Additional observations from a re-analysis of the deposited data

Results flagged for a closer look

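In 8 of 148 groups of libraries over the 37 transcripts, 1 library stood apart from the others by its gap relative to the range, and chance gives about 1 in 20 groups. In colon these were *A3galt2* in ND rat K4037 (30.85 CPM, others 19.08 to 21.68), *Slc28a2* in D3M rat K3959 (24.61 CPM, others 13.63 to 15.77), *Cmtm3* in D3M rat K3961 (4.753 CPM, others 8.183 to 8.901), *Wnt2* in D3M rat P762 (0.08524 CPM, others 0), *Susd4* in ND rat K4038 (2.201 CPM, others 3.312 to 3.869) and *Slc16a14* in D3M rat K3980 (4.861 CPM, others 7.16 to 7.895). In ileum they were *Slc2a9* (137.3 CPM, others 176.7 to 199.2) and *Dhrs9* (108.7 CPM, others 183.1 to 230.9), both in D3M rat K3959.

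The D3M vs ND response differed between ileum and colon by the test of the difference itself for 37 transcripts. The log2 differences, ileum minus colon, were *A3galt2* 1.99, *Anpep* 1.71, *Slc28a2* 1.71, *Dpp4* 1.35, *Cmtm3* 2.01, *Eloa* 0.568, *Wnt2* 5.6, *Cryba4* 2.19, *Ube2e2* 0.89, *Slc46a3* 2.1, *Acot5* 2.55, *Cklf* 1.16, *Acsl5* 0.925, *Ralgps2* 1.1, *Mgam* 1.36, *Fkbp10* 1.89, *Tbc1d1* 0.963, *Nkap* 1.04, *Susd4* -1.8, *Slc16a14* 1.25, *Vat1* 0.668, RGD1566189 2.19, *Bcr* 0.906, *Acta1* 2.32, *Slc43a2* 1.33, *Slc2a9* 0.894, *Adamtsl4* 1.25, *Ppp2r5c* 0.525, *Dhrs9* 1.24, *Ehd1* 0.697, *Car4* 1.65, *Pde6a* 2.78, *Tnfrsf1b* 1.87, *Helz* 0.967, *Panx1* 1.02, *Tmem37* 1.23 and *Gramd1b* 0.972. For D1M vs ND, *Cryba4* differed by 2.20.

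The value of *Wnt2* is fitted on 1 count in all D3M colon libraries together, depends on the prior count and is no bound.

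The libraries left out as mixed held markers of the other segment, given as CPM of the plain library total. In ileum of ND rat K4040, *Car1* stood at 3758 CPM and *Hoxd10* at 1.729 CPM, against 2.606 to 23.22 CPM and 0 CPM in the ND ileum libraries kept. In colon of ND rat K4028, *Fabp6* stood at 8463 CPM and *Slc10a2* at 11.7 CPM, against 3.851 to 22.19 CPM and 0 to 0.3366 CPM in the ND colon libraries kept.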

How the results depend on the processing

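None of the 37 differences changed direction under any of 14 other settings, 4 settings chosen after seeing the data or 34 fits without 1 library, while the number called varied. Counts are given in the order of the D3M vs ND difference (37 as reported) and, where they moved by over 1.5 times, its part called in ileum and not in colon (37 as reported), ileum (1435), colon (1), the D3M vs D1M difference (0) and the D1M vs ND difference (1).

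With only the ND and D3M libraries 10 differed, 4 of them called in ileum alone, 3 in colon alone and 3 in both with opposite directions, with 504 in ileum and 53 in colon. With the mixed libraries kept 214 differed, 186 in ileum alone and 2 in colon alone, with 6 in colon, 0 for D1M vs ND and 48 opposite pairs at an unadjusted p (11 as reported), and list medians were 3.47 (ileal identity), 2.45 (peptidases), 1.25 (carbohydrate) and 1.21 (lipid). RLE size factors gave 23, all in ileum alone. DESeq2 gave 107, 101 in ileum alone and 3 in colon alone, with 23 in colon, 33 for D3M vs D1M and 2 for D1M vs ND. Voom gave 101, 99 in ileum alone, with 25, 29 and 0. Without a flow cell term 230 differed, 225 in ileum alone, with 3089 in ileum, 2 in colon, 13 for D3M vs D1M, 0 for D1M vs ND and 27 opposite pairs.

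Without flow cell 2, 1 differed (1 in ileum alone, 1 opposite pair), with 166 in ileum, 0 in colon, 1 and 0, and the median of enteric neurons was 0.887, *Asz1* -1.24 (a fitted value with 0 counts in D3M colon, which depends on the prior count) and *Igfbp3* -0.06992. In flow cell 3 alone 1 differed (1 in ileum alone, 1 opposite pair), with 814, 0, 4 and 0, and medians of 1.17 (peptidases), 0.799 (lipid), 0.789 (brush border structure) and 2.7 (neurons). With rat as a fixed replicate block 0 differed, with 0 for D1M vs ND, medians of 0.128 (brush border structure) and -1.78 (neurons), *Col1a1* -0.18 and *Col3a1* -0.04264. With duplicateCorrelation as the block, colon gave 4 and D1M vs ND 0.

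Without the D3M ileum libraries of rats P762 and P780, 16 differed (16 in ileum alone), with 426, 2 in colon and 0 for D1M vs ND, a median of -1.81 (neurons) and *Kctd14* at -0.00221. Without libraries with a high B cell score 0 differed (0 in ileum alone, 0 opposite pairs), with 0, 0, 1 and 0, *Col1a1* -0.03462 and *Igfbp3* -0.38. A smooth muscle score gave 69 (68 in ileum alone), 4 in colon and 8 for D3M vs D1M, and a B cell score 5 in colon, 1, 2 and *Igfbp3* -0.08371. The colon gave 2 with the edgeR 4 method and 4 when fitted alone. Where a setting removed libraries, fewer samples were left. For the other settings the cause was not tested.

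Without 1 library each, counts were 9 to 116 (difference), 8 to 114 (ileum alone), 0 to 2 (colon alone), 0 to 0 (both, opposite), 6 to 21 (opposite pairs), 325 to 2050 (ileum), 0 to 3 (colon), 0 to 28 (D3M vs D1M) and 0 to 2 (D1M vs ND). List medians were 0.5 to 0.974 (ileal identity), 0.463 to 0.873 (peptidases), 0.498 to 0.773 (carbohydrate), 0.371 to 0.659 (lipid), 0.211 to 0.642 (brush border structure) and -1.48 to -0.169 (neurons), and *Igfbp3* ran from -0.1629 to 0.2662, with -0.1008, -0.04629, -0.1268 and -0.1629 without colon ND K4037, colon ND K4048, ileum ND K4028 and ileum D3M P762. The colon values of *Wnt2* and *Asz1* rest on 1 and 0 counts in all D3M colon libraries together, and the cause of these low counts was not tested.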
